A study of Sus scrofa with 11 samples.

Results

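ATP2A1, CASQ1 and PVALB are 3 genes that skeletal muscle fibres use to store, release and clear calcium, and they are most abundant in fast-twitch fibres. They were taken as the rows of the deposited pig gene table whose Ensembl gene ID carries these symbols, which gave 3 of 25322 rows (ENSSSCG00000007805 for ATP2A1, ENSSSCG00000006390 for CASQ1 and ENSSSCG00000000138 for PVALB). The rule itself uses no measured value, but it was set with earlier results of these data known. The question was how these genes compare between loin muscles that differ in fibre composition, and how each is tied to the others from pig to pig.

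RNA of the longissimus lumborum, the loin muscle along the spine, had been sequenced from 11 female pigs that were all 23 weeks old. The pigs were split by fibre histology of the same muscle, with no drug, diet or genetic treatment named in the labels. The 7 pigs of the fibre1 group (pigs 1, 2, 5, 6, 7, 12 and 17) had over 17% type I fibres, which are slow and oxidative, and under 70% type IIB fibres, which are fast and glycolytic. The 4 pigs of the fibre2B group (pigs 10, 11, 14 and 16) had under 8% type I and over 70% type IIB fibres. Each library is a piece of whole muscle, in which fewer fibres of a type and less RNA per fibre cannot be told apart.

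A contraction begins when the voltage sensor of the membrane opens the ryanodine receptor and calcium leaves the sarcoplasmic reticulum. CASQ1 encodes calsequestrin 1, the main calcium-binding protein inside that store, and ATP2A1 encodes SERCA1, the pump that returns calcium to it in fast fibres. PVALB encodes parvalbumin, a soluble buffer that takes up calcium in the cytosol and so speeds relaxation, and which in rodents is typical of the fastest fibres.

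Libraries held 14832736 (fibre2B pig 14) to 36374829 (fibre1 pig 12) counts. ATP2A1, CASQ1 and PVALB are not among the 10 most abundant nuclear genes. Those 10 genes made up 45.2% of all counts for pig 5 and 44.1% for pig 6, both of fibre1, and 29.5% to 36.8% for the remaining pigs. The skeletal muscle markers ACTA1, DES, NEB and MYOT (4 of 7 listed had a row) were abundant in every library, with a summed level of 75218 to 161913 CPM in fibre1 and 57186 to 87105 CPM in fibre2B. CPM here are counts divided by library size after correction of that size with TMM factors (trimmed mean of M-values). Of the marker lists of other cells, fibroblast genes had 2 of 4 tested members higher in fibre2B at an adjusted p of 0.05 in edgeR, where 4.63% of all genes tested were (summed 472 to 976 CPM in fibre1 and 743 to 1437 CPM in fibre2B), and blood had 1 of 2 (137 to 467 CPM and 423 to 954 CPM). The adipocyte, endothelial, smooth muscle, immune and nerve lists had 0 tested members past the threshold. The part of these differences in the results that follow was not tested.

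SERCA1 transcripts were abundant in every pig. In fibre2B, ATP2A1 stood at 3269 CPM in pig 10, 4882 CPM in pig 11, 2265 CPM in pig 14 and 4452 CPM in pig 16. In fibre1 it ran from 3281 CPM in pig 12 through a median of 5215 CPM in pig 7 to 11958 CPM in pig 6, with pig 5 next at 8540 CPM. On this scale pigs 5 and 6 stood above all others. The other 5 fibre1 pigs spanned 3281 to 6026 CPM and overlapped the fibre2B range. Pigs 5 and 6 had the lowest TMM factors (0.718 and 0.779, against 0.959 to 1.19 for the rest), and a low factor raises CPM. As a share of all counts, ATP2A1 was highest in pig 6 (0.931%), while pig 5 (0.613%) lay just under pigs 1 (0.620%) and 7 (0.618%). The means were 6267 ± 3012 CPM (SD, n = 7) in fibre1 and 3717 ± 1184 CPM (SD, n = 4) in fibre2B.

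The store protein followed the same order at the ends. In fibre2B, CASQ1 stood at 5405 CPM in pig 10, 6878 CPM in pig 11, 4996 CPM in pig 14 and 6508 CPM in pig 16. In fibre1 it ran from 5434 CPM in pig 12 through a median of 7775 CPM in pig 2 to 12571 CPM in pig 6. Pig 5 was again second at 9981 CPM. As a share of all counts, CASQ1 was highest in pig 6 (0.979%). By that share pig 5 (0.717%) lay under fibre1 pigs 1 (0.807%) and 2 (0.763%) and fibre2B pig 11 (0.783%). The groups overlapped, with means of 8144 ± 2446 CPM (SD, n = 7) in fibre1 and 5947 ± 890 CPM (SD, n = 4) in fibre2B.

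Parvalbumin had another pattern, in which the fibre2B pigs held both the highest and the lowest libraries. PVALB stood at 118 CPM in pig 10, 60.6 CPM in pig 11, 71.2 CPM in pig 14 and 317 CPM in pig 16. In fibre1 it ran from 130 CPM in pig 5 through a median of 186 CPM in pig 2 to 253 CPM in pig 7. The whole fibre1 range thus lay between fibre2B pigs 10 and 16, with means of 182 ± 47.0 CPM (SD, n = 7) in fibre1 and 142 ± 120 CPM (SD, n = 4) in fibre2B. The counts behind these levels ran from 1255 to 6091. Transcript lengths were not used here, so counts and CPM of different genes do not compare their numbers of transcripts.

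**Figure D1:**
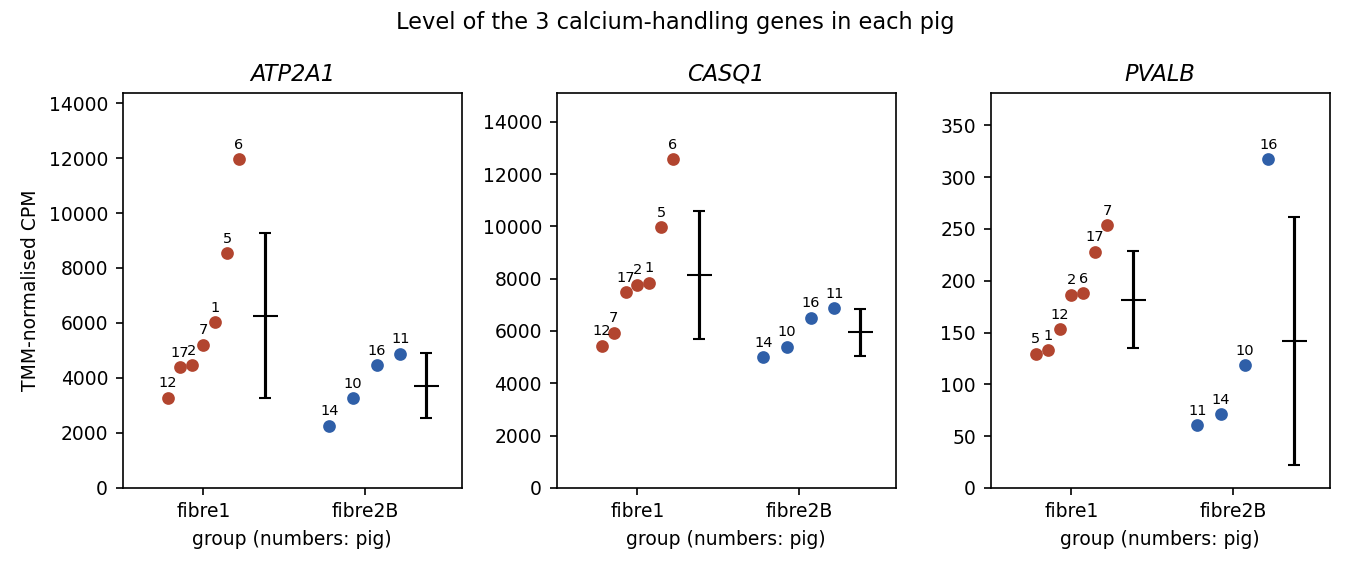
Level of ATP2A1, CASQ1 and PVALB in TMM-normalised CPM (vertical axes, each from 0) in the 7 fibre1 pigs (red) and 4 fibre2B pigs (blue), with the pig's number at each point and the group mean with its SD in black. On this scale fibre1 pigs 6 and 5 are the highest 2 for ATP2A1 and CASQ1, but by share of all counts pig 5 is not. Fibre2B pig 16 is the highest and fibre2B pigs 11 and 14 are the lowest for PVALB.

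Under edgeR's quasi-likelihood test with Benjamini-Hochberg adjustment over the 11329 genes tested, 0 of the 3 genes passed an adjusted p of 0.05, where 9.01% of all genes tested did (4.38% higher in fibre1 and 4.63% higher in fibre2B). ATP2A1 had a log2 fold change, fibre1 minus fibre2B, of 0.75 ± 0.34 (SE), which is 1.69-fold, with an adjusted p of 0.165. CASQ1 had 0.45 ± 0.24 (1.37-fold, adjusted p = 0.217) and PVALB 0.36 ± 0.38 (1.28-fold, adjusted p = 0.564). Before adjustment the edgeR p was 0.0455 for ATP2A1, 0.0745 for CASQ1 and 0.367 for PVALB. Of all genes tested, 28.9% lay under 0.05 unadjusted. The sign was positive for all 3 genes, towards the group with fewer type IIB fibres. The fast contractile list had a row for 4 of 10 genes, and in the same fit 0 of these 4 passed (median 0.24). They ran from MYL1 at -0.079 through MYL11 at 0.10 and TNNC2 at 0.38 to MYBPC2. MYBPC2, a fast myosin-binding protein gene, had 0.82 ± 0.33 (edgeR adjusted p = 0.119). The slow contractile list had a row for 7 of 11 genes. There 7 of 7 tested genes were positive (median 0.95) and 1 passed, the row named MYH6 (2.29 ± 0.59, adjusted p = 0.034). Both medians thus cover only part of their lists. The slow troponin genes TNNT1 (1.06 ± 0.41, adjusted p = 0.107) and TNNI1 (1.15 ± 0.45, 0.112) did not pass. MYL1, MYL11, TNNC2 and MYH6 are named here after their values were seen.

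The size of these differences moved with single pigs. Without fibre1 pigs 5 and 6, which carry the high share of the top 10 genes, ATP2A1 had a log2 fold change of 0.33 (edgeR adjusted p = 0.445) and CASQ1 0.21 (adjusted p = 0.50). With that share as a covariate, ATP2A1 had 0.45, CASQ1 0.26 and PVALB 0.51. Without fibre1 pigs 5 and 6 PVALB had 0.43, so only ATP2A1 and CASQ1 went down in both fits. PVALB had 0.10 without fibre2B pig 11 and 0.14 without fibre2B pig 14, but 1.12 without fibre2B pig 16, and only in that last fit among those tried did it pass (adjusted p = 0.048). The limma-voom fit gave PVALB 0.64 (adjusted p = 0.268).

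**Figure D2:**
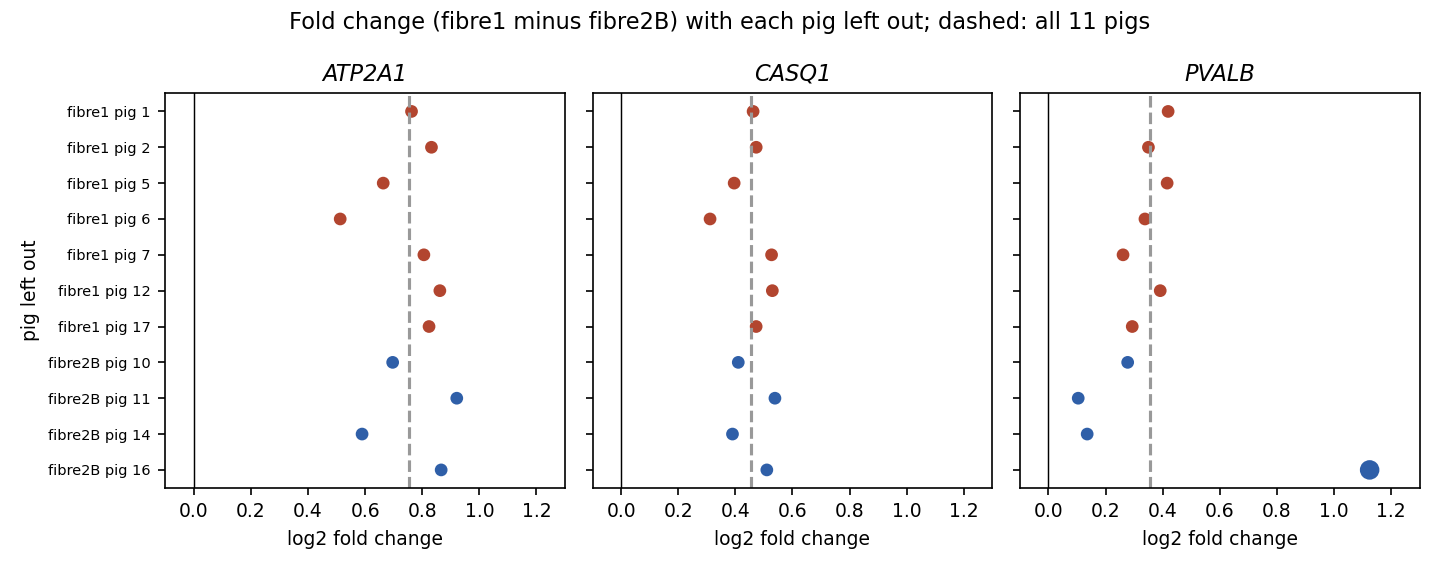
Log2 fold change of fibre1 minus fibre2B (horizontal axes) for ATP2A1, CASQ1 and PVALB after leaving out the pig named on the vertical axis (red for fibre1, blue for fibre2B), with a dashed line at the value from all 11 pigs, and a larger point where the edgeR adjusted p was at or under 0.05. ATP2A1 runs from 0.51 to 0.92, CASQ1 from 0.31 to 0.54 and PVALB from 0.10 to 1.12.

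In each group PVALB and ATP2A1 varied more between pigs than most genes, and CASQ1 did so only in fibre1. Genes were not matched for level here, and the 1 added to CPM narrows the SD of genes with low CPM. The SD of log2(CPM + 1) of PVALB over the 4 fibre2B pigs was 1.07, and 99.1% of the genes tested had a lower SD there (median over all genes 0.24). Over the 7 fibre1 pigs it was 0.37, with 75.5% of genes lower (median 0.28). For ATP2A1 the SD was 0.63 in fibre1 (95.6% of genes lower) and 0.50 in fibre2B (90.3% lower). CASQ1 was the steadier of the store and pump pair, with 0.41 in fibre1 (82.6% lower) and 0.22 in fibre2B (43.6% lower). In fibre1 its SD was above that of PVALB.

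SERCA1 and calsequestrin transcripts went together from pig to pig. Over the 11 pigs, log2(CPM + 1) of ATP2A1 and CASQ1 had a Pearson r of 0.93 (two-sided permutation p = 6e-05, adjusted over the 3 pairs 0.00018) and a Spearman rho of 0.86 (permutation p = 0.0011, adjusted 0.0034). Without the 2 pigs farthest from the median ATP2A1 level, fibre1 pig 6 and fibre2B pig 14, r was 0.85 (exact permutation p = 0.0036, adjusted 0.011). Within the 7 fibre1 pigs r was 0.91 (exact permutation p = 0.0073, adjusted 0.022), and on deviations from the group means it was also 0.91 (permutation p = 0.00065). Without fibre1 pigs 5 and 6 it was 0.80 (adjusted permutation p = 0.022). The 2 genes share each pig's library and scaling factor, and with library totals in place of TMM factors r was 0.88.

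Parvalbumin showed no such tie at this sample size. PVALB had an r of 0.28 with ATP2A1 (permutation p = 0.404, adjusted 0.537) and 0.21 with CASQ1 (permutation p = 0.537, adjusted 0.537). Spearman's rho was 0.21 for each pair (permutation p = 0.539 for both, adjusted 0.539). Within fibre1 the coefficients were -0.19 and -0.24 (exact permutation p = 0.679 and 0.592). Without the 2 pigs farthest from the median they were -0.09 for ATP2A1 and 0.28 for CASQ1, where the pigs left out were fibre1 pigs 6 and 5. The spread of 11 pigs leaves these coefficients imprecise, and leaving out single pigs moved r from 0.02 to 0.36 for ATP2A1 and from 0.011 to 0.31 for CASQ1.

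**Figure D3:**
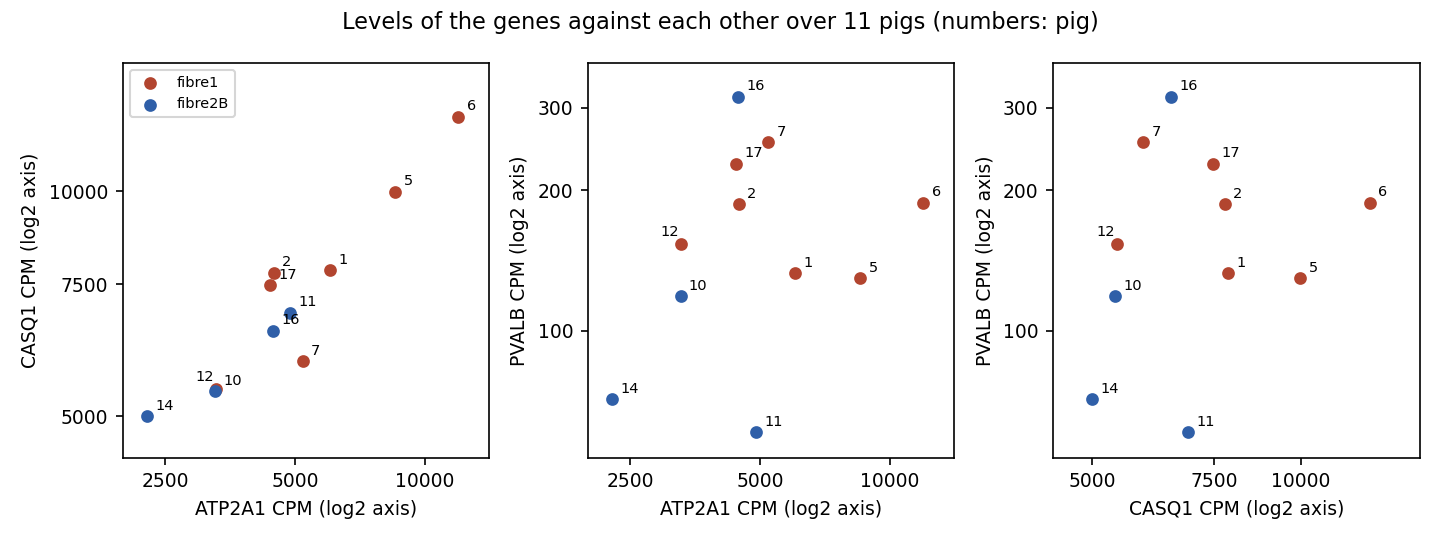
Each gene's TMM-normalised CPM against another's in the 11 pigs on log2 axes, with red for fibre1, blue for fibre2B and the pig's number beside each point. CASQ1 goes up with ATP2A1 across pigs of both groups (r = 0.93), while PVALB forms no line with ATP2A1 (r = 0.28) or CASQ1 (r = 0.21).

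Ratios of 2 genes within a pig do not depend on the scaling factor. They were taken on counts without transcript lengths, so they serve to compare pigs and not the 2 genes. The count ratio of CASQ1 to ATP2A1 was 1.65 in fibre2B pig 10, 1.41 in pig 11, 2.21 in pig 14 and 1.46 in pig 16, and in fibre1 it ran from 1.05 in pig 6 to 1.74 in pig 2. The pig with the most ATP2A1, which is the denominator here, had the lowest ratio and the pig with the least had the highest. On the log2 scale the mean ratio was 0.45 ± 0.31 (SD, n = 7) in fibre1 and 0.73 ± 0.29 (SD, n = 4) in fibre2B, a difference of -0.28 (two-sided exact permutation p = 0.167 over 330 splits, adjusted over 3 ratios 0.5). The log2 ratio of PVALB to ATP2A1 differed by -0.0444 (exact permutation p = 0.939, adjusted 0.939) and that of PVALB to CASQ1 by 0.23 (exact permutation p = 0.633, adjusted 0.939). The smallest p this design allows is 0.00303.

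The tie of the pump and store genes was set beside other muscle genes in 9 correlations over the 11 pigs. MYBPC2, a thick-filament protein of fast fibres, had an r of 0.89 with ATP2A1 (adjusted permutation p = 0.0018, rho 0.79) and 0.93 with CASQ1 (adjusted 0.0012, rho 0.86), but 0.22 with PVALB (adjusted 0.518, rho 0.32). Without fibre1 pigs 5 and 6 these r were 0.69, 0.82 and 0.36, and without the 2 pigs farthest from each gene's median 0.81, 0.82 and -0.08. TNNT1 had an r of 0.46 with ATP2A1, 0.37 with CASQ1 and 0.47 with PVALB, and TNNI1 had 0.51, 0.43 and 0.46, with adjusted permutation p from 0.230 to 0.290. Only the rho of CASQ1 with TNNI1 passed among those 6 pairs (0.73, adjusted permutation p = 0.043). Without fibre1 pigs 5 and 6, ATP2A1 had an r of 0.71 with TNNT1 and 0.70 with TNNI1, but within fibre1 these were 0.0081 and 0.13, and without the 2 pigs farthest from the median ATP2A1 level 0.25 and 0.26. The share of counts on the top 10 genes also moved with the pair: r was 0.70 for ATP2A1 and 0.75 for CASQ1 (adjusted permutation p = 0.029 for each, adjusted over 3), with a rho of 0.49 and 0.55 (adjusted 0.193 for each). Without fibre1 pigs 5 and 6 the same r was -0.09 for ATP2A1 and 0.06 for CASQ1, so this relation rests on those pigs. Their TMM factors were also the lowest (0.718 and 0.779), and a low factor raises the CPM that enter r. The relation and its p thus cannot be told apart from this scaling, whose part was not tested. For PVALB the r was -0.02 (adjusted 0.961).

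Among the 7766 genes with a symbol, the 5 most like ATP2A1 by Pearson r over the 11 pigs were SEMA4D (0.95), HRC (0.95), BCORL1 (0.94), CASQ1 (0.93) and NFYC (0.93). HRC encodes the histidine-rich calcium-binding protein, which like calsequestrin lies in the lumen of the sarcoplasmic reticulum. HRC was at 498, 607, 342 and 587 CPM in fibre2B pigs 10, 11, 14 and 16 and ran from 380 CPM in fibre1 pig 12 to 996 CPM in fibre1 pig 6, so its ends fell on the same libraries. The 5 most like CASQ1 were PATL1 (0.97), RAB7A (0.97), ISCU (0.95), CAPN3 (0.95) and SKIC2 (0.95), and ATP2A1 came 17th. CAPN3 encodes calpain 3, a calcium-dependent protease of muscle. These genes were chosen for their likeness, so the coefficients describe it and carry no p.

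PVALB had weaker neighbours, led by RASGEF1C (0.87), CACNG6 (0.84), ZNF232 (0.83), EPDR1 (0.80) and SLC16A5 (0.79). Of these, RASGEF1C (0.910 to 2.75 CPM, 21 to 71 counts) and ZNF232 (0.0867 to 2.02 CPM, 2 to 44 counts) had low levels over the 11 pigs. CACNG6 encodes a gamma subunit of voltage-gated calcium channels. It stood at 18.2, 14.5, 15.1 and 25.9 CPM in fibre2B pigs 10, 11, 14 and 16, with pig 16 the highest and pigs 11 and 14 the lowest as for PVALB, and at 20.4 to 31.5 CPM in fibre1. PVALB ranked 2624th in likeness to ATP2A1 and 2869th in likeness to CASQ1. Across the 48 other calcium genes tested, the median r was 0.082 with ATP2A1, -0.015 with CASQ1 and 0.091 with PVALB, against -0.052, -0.073 and -0.0043 over all 11328 other genes, so close likeness was not general among calcium genes.

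The isoform table split PVALB into 3 transcripts and held 1 each for ATP2A1 and CASQ1. Transcripts were tied to genes by row order and by sums that matched the gene's counts to within 2 counts in every pig, so this assignment is inferred. Of the 5 transcripts, 0 passed edgeR's test, where 5.39% of the 12212 isoforms tested did. ENSSSCT00000035876 carried most PVALB counts in fibre1, with a share of 80.1% to 97.1% (median 89.2%). In fibre2B its share was 92.2% in pig 10, 48.6% in pig 11, 47.8% in pig 14 and 93.0% in pig 16. Fibre2B pigs 11 and 14, the pair with the lowest PVALB, thus stood apart from every other library.

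In those pigs ENSSSCT00000000144 made up most of the rest. Its share was 7.40%, 49.6%, 52.2% and 6.85% in fibre2B pigs 10, 11, 14 and 16, and 2.54% to 18.2% in fibre1 (median 9.96%). Its level was 8.76, 29.7, 37.3 and 21.8 CPM in fibre2B and 3.58 to 41.4 CPM in fibre1, whereas ENSSSCT00000035876 stood at 29.1 CPM in pig 11 and 34.1 CPM in pig 14 against 109 CPM in pig 10, 296 CPM in pig 16 and at least 116 CPM in each fibre1 pig. The mean share of ENSSSCT00000000144 was 8.48% ± 5.85 (SD, n = 7) in fibre1 and 29.0% ± 25.3 (SD, n = 4) in fibre2B. That difference of -20.6 percentage points did not pass the two-sided exact permutation test (p = 0.0636, adjusted over 3 transcripts 0.105), and it ran from -27.9 to -12.8 with single pigs left out. The third transcript, ENSSSCT00000032626, held at most 2.03% of PVALB in any pig.

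**Figure D4:**
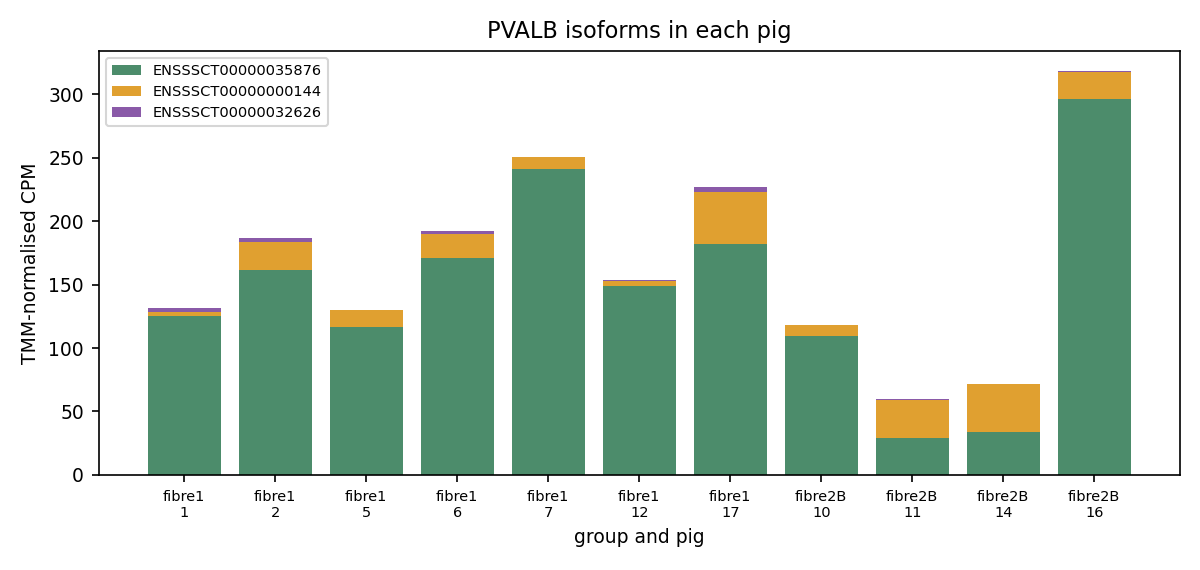
TMM-normalised CPM (vertical axis, from 0) of the 3 PVALB transcripts, stacked, in each of the 7 fibre1 and 4 fibre2B pigs (horizontal axis). ENSSSCT00000035876 (green) forms most of the bar in 9 pigs, and ENSSSCT00000000144 (orange) forms 49.6% and 52.2% of PVALB in fibre2B pigs 11 and 14.

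Genes that overlap or resemble the 3 genes could share reads with them. In the RefSeq annotation of Sscrofa11.1, used for names only because the files use another build, RABEP2 overlaps ATP2A1 and NCF4 overlaps PVALB. RABEP2 was at 3.49 to 6.76 CPM and NCF4 at 0.693 to 3.35 CPM over the 11 pigs, below every level of the gene each overlaps. RABEP2 passed edgeR's test (0.62, adjusted p = 0.034) and NCF4 did not (-0.21, adjusted p = 0.730). The slow-fibre pump gene ATP2A2, the close paralog of ATP2A1, was not analysed here, and how reads were shared between the pumps was not tested.

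The rest of the calcium pathway was read from 7 lists of 73 genes by role, of which 54 had a row and 48 were tested. Of these 48, 5 passed edgeR's test over all genes tested, which is 10.4% beside the 9.01% of all genes, with 3 higher in fibre1 and 2 higher in fibre2B. The median log2 fold change was 0.17, against 0.0073 over all genes, and 28 were positive and 20 negative. In 3 of the 48 (6.25%) every pig of one group lay above every pig of the other, beside 7.55% of all genes tested. The calcium genes thus passed at about the rate of other genes.

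In the list of the voltage sensor and calcium release, 1 of 10 tested genes passed and 9 had a positive sign (median 0.40). Over all genes tested, 9.01% passed and 50.7% were positive. BIN1, which shapes the T-tubule membrane, stood at 965, 838, 641 and 778 CPM in fibre2B pigs 10, 11, 14 and 16 and at 1020 to 2122 CPM in fibre1 (median 1251 CPM). The groups did not overlap, and the difference was 0.84 ± 0.22 (edgeR adjusted p = 0.039). CACNB1, a subunit of the voltage sensor (0.47), JPH1, which ties the T-tubule to the reticulum (0.46), and the kinase subunit gene CAMK2A (0.59) did not pass, with adjusted p from 0.108 to 0.175. RYR1, STAC3 and JPH2 were among the genes not analysed here.

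Of the store list, which holds the partners of calsequestrin, 0 of 6 passed, where 9.01% of all genes tested did. The median was -0.05. SRL, the luminal protein sarcalumenin, had 1.01 ± 0.37 (edgeR adjusted p = 0.094), HRC 0.47 ± 0.24 (0.220) and ASPH, whose gene also encodes the junctional protein junctin, -0.76 ± 0.23 (0.058). Of the reuptake list 0 of 3 passed. In lists of 6 and 3 genes, 0 calls cannot be told from that 9.01%. SLN, sarcolipin, a small inhibitor of the SERCA pumps, was abundant and had like levels in the groups (8094 ± 1423 CPM, SD, n = 7, and 8536 ± 1708 CPM, SD, n = 4). Its difference was -0.077 ± 0.19 (adjusted p = 0.821). ATP2C1, a calcium pump of the Golgi, had -0.39 ± 0.12 (0.061) with groups that did not overlap, as in 7.55% of all genes tested. The pump gene ATP2A3 had 0.29 ± 0.20 (0.355).

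The cytosolic list, which holds the other calcium-binding proteins beside parvalbumin, had 3 of 5 tested genes past the threshold, in both directions. The share was 9.01% over all genes tested and 10.4% over the 7 calcium lists. CALM2 and CALM3 encode the same calmodulin protein. CALM2 stood at 283, 319, 476 and 375 CPM in fibre2B pigs 10, 11, 14 and 16 and at 140 to 240 CPM in fibre1 (median 223 CPM), so the groups did not overlap. Its difference was -0.78 ± 0.17 (edgeR adjusted p = 0.022), higher in fibre2B. CALM3 had the other sign, with 337, 429, 463 and 402 CPM in fibre2B pigs 10, 11, 14 and 16 and 439 to 1103 CPM in fibre1 (median 678 CPM). Its difference was 0.78 ± 0.22 (adjusted p = 0.042), with 1 fibre1 pig inside the fibre2B range. SRI, sorcin, a calcium-binding partner of the ryanodine receptor, was higher in fibre2B, with 13.1 ± 1.59 CPM (SD, n = 4) against 8.09 ± 2.09 CPM (SD, n = 7), a difference of -0.70 ± 0.20 (adjusted p = 0.043). S100A4 had -0.048 ± 0.42 (adjusted p = 0.953).

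Among the genes of mitochondrial calcium, 1 of 7 passed, beside 9.01% of all genes tested. LETM1, an ion exchanger of the inner mitochondrial membrane, was higher in fibre1, with 9.49 ± 1.65 CPM (SD, n = 7) against 5.47 ± 1.65 CPM (SD, n = 4), a difference of 0.79 ± 0.20 (edgeR adjusted p = 0.033). The uniporter gene MCU (0.72, adjusted p = 0.344) and its regulator MICU2 (0.35, adjusted p = 0.152) did not pass. In the plasma membrane and store-operated entry list 0 of 9 passed, with STIM1, the calcium sensor of the reticulum, at 0.38 (0.118), ORAI3 at 0.38 (0.411) and STIM2 at -0.14 (0.655). In the calcineurin list 0 of 8 passed, with PPP3CB, a catalytic subunit of calcineurin, at 0.32 (0.170), NFATC4 at 0.43 (0.200) and RCAN1, a regulator of calcineurin, at -1.27 ± 0.40 (0.063).

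These 5 genes kept their direction with each single pig left out. Their log2 fold changes then ran from 0.71 to 0.93 for BIN1, 0.63 to 0.87 for CALM3, 0.70 to 1.02 for LETM1, -0.89 to -0.62 for CALM2 and -0.79 to -0.61 for SRI. Without fibre1 pigs 5 and 6 none of the 5 passed in edgeR (adjusted p from 0.072 to 0.092), and over all genes tested the calls went from 1021 to 28. BIN1 then had 0.58, CALM3 0.57, LETM1 0.76, CALM2 -0.77 and SRI -0.52. With a single pig left out, CALM2 lost its call in 2 of 11 fits, without fibre2B pig 14 (adjusted p = 0.088) or 16 (0.058). BIN1 and LETM1 lost theirs in 7 fits each, and CALM3 and SRI in 8 each (adjusted p from 0.056 to 0.128 over these 4 genes). BIN1, CALM3 and SRI lost theirs whichever fibre2B pig was left out, and LETM1 without fibre2B pig 10, 14 or 16. Among fibre1 pigs, leaving out 2, 5 or 6 ended the call of each of these 4 genes, and leaving out 1 ended that of CALM3, LETM1 and SRI.

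**Figure D5:**
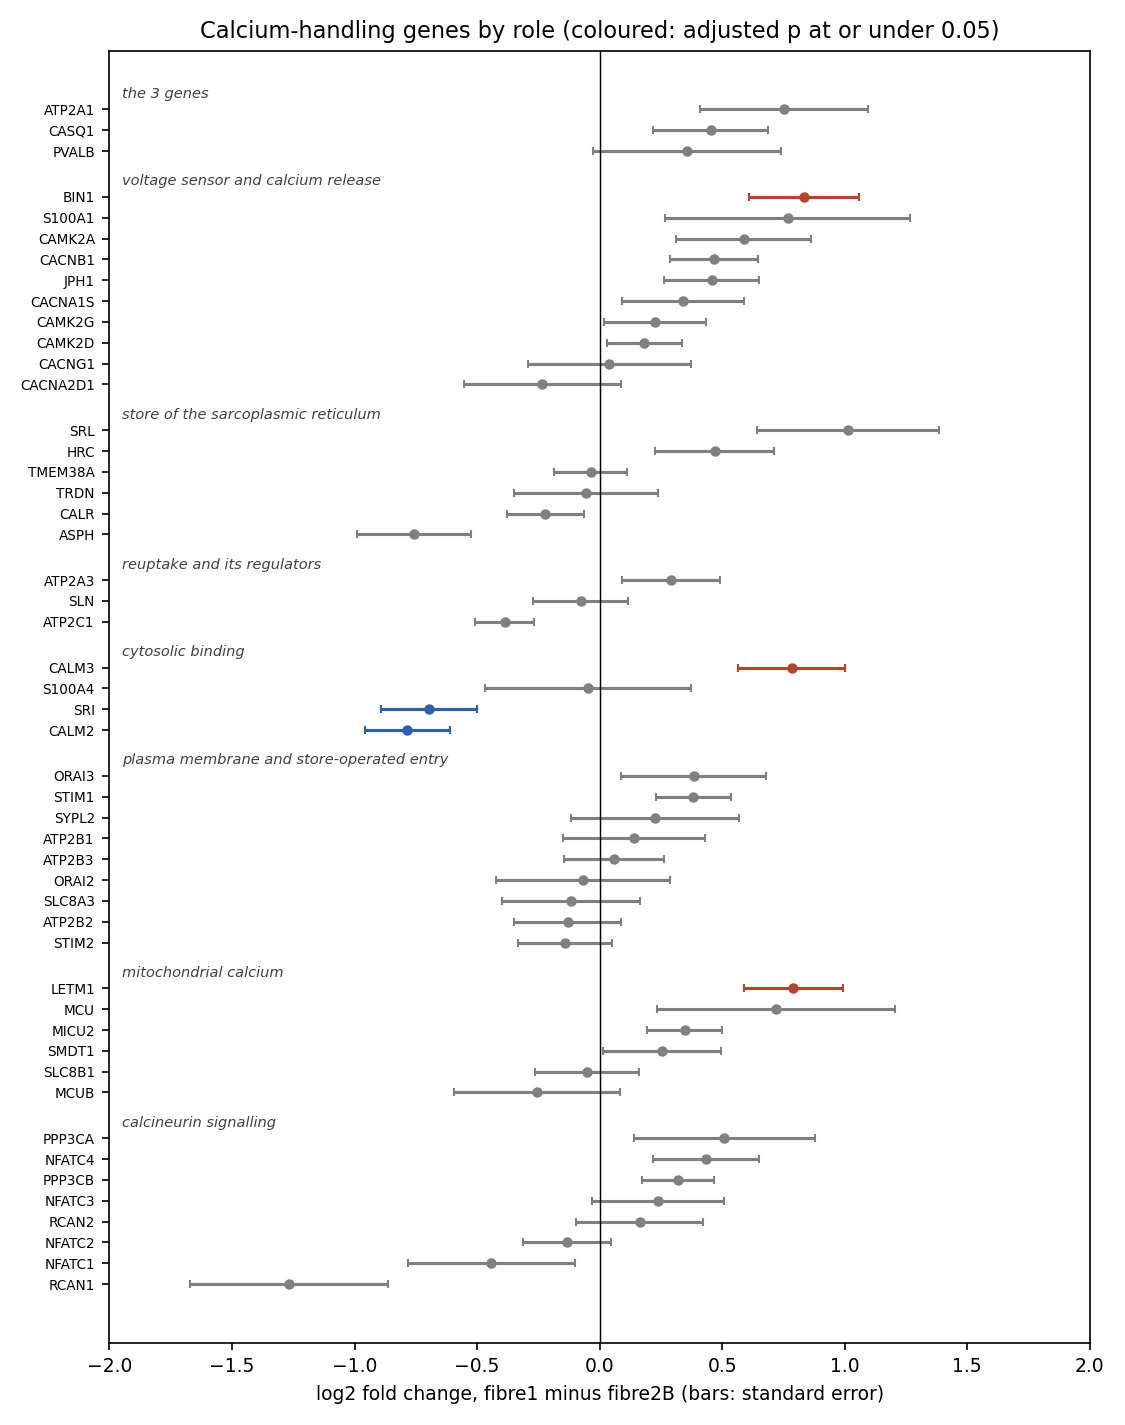
Log2 fold change of fibre1 minus fibre2B (horizontal axis, bars show the standard error) for ATP2A1, CASQ1, PVALB and 46 of the 48 other calcium genes tested (the remaining genes are not reported here), grouped by role, with red for genes higher in fibre1 and blue for genes higher in fibre2B at an edgeR adjusted p of 0.05, and grey for the rest. BIN1, CALM3 and LETM1 are red, CALM2 and SRI are blue, and ATP2A1, CASQ1 and PVALB are grey with positive values.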

How the data were processed

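The authors deposited expected counts per gene and isoform without decimals, 1 column per pig, with 0 columns of other samples. The submitters' processing notes name CASAVA 1.8.2, FastQC, STAR, RSEM, edgeR, DESeq2 and the build Sscrofa10.2, with no roles. The series' design text gives single-end reads and technical repetitions, which the deposited columns do not separate. Each replicate is a pig, and no pig number occurs in both groups.

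Counts were rounded and tested with edgeR 4.0.16 (R 4.3.3; TMM factors, filterByExpr, quasi-likelihood F test, Benjamini-Hochberg adjusted p of 0.05) over 11329 genes and, with their own factors, over 12212 isoforms. The SE is the log2 fold change over the square root of F. Ratios and shares were tested by exact permutation over 330 splits, and correlations of log2(CPM + 1) with 100000 permutations, or all of them for up to 9 pigs. The scripts were tested on simulated data.

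The genes and lists were chosen with earlier results of these data known. Named genes are ATP2A1, CASQ1, PVALB, each calcium gene that passed, up to 3 further genes per list by smallest p, the 5 genes most like each of the 3, and MYBPC2, TNNT1 and TNNI1. TNNT3 and TNNI2, also in that rule, were not analysed here, and some genes that the rule names are not reported here. RCAN1, ATP2C1 and others are thus named without passing. Alternatives were other scaling factors, filters, DESeq2 1.42.0, limma 3.58.1 (voom), a covariate and pigs left out.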

Additional observations from a re-analysis of the deposited data

How the results depend on the processing

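ATP2A1, CASQ1 and PVALB kept positive log2 fold changes under every alternative run, and 0 of the 3 passed in any of them except PVALB without fibre2B pig 16 (1.12, adjusted p = 0.048). With single pigs left out, ATP2A1 ran from 0.51 to 0.92, CASQ1 from 0.31 to 0.54 and PVALB from 0.10 to 1.12. DESeq2 gave ATP2A1 0.77 (adjusted p = 0.084). Scaling to library totals moved the median of all genes to -0.19 and gave ATP2A1 0.48, CASQ1 0.20 and PVALB 0.20, which are shifted with it. The correlation of ATP2A1 with CASQ1 passed under every alternative run, with r from 0.80 to 0.97.

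Small values changed sign. The log2 ratio of PVALB to ATP2A1 differed by 0.31 as a difference of medians, by 0.35 without fibre1 pigs 5 and 6, and from -0.49 to 0.35 with single pigs left out. That of PVALB to CASQ1 ran from -0.14 to 0.68 and that of CASQ1 to ATP2A1 from -0.35 to -0.14. The correlation of ATP2A1 with PVALB was -0.0903 without the 2 farthest pigs and -0.19 within fibre1, and that of CASQ1 with PVALB was -0.24 within fibre1 and -0.0259 on deviations from the group means. The cause was not tested.

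The count of calcium genes past the threshold, 5 as reported, varied between settings. So did the count over all genes tested, 1021 as reported, but not in strict step. The calcium count was 2 with library totals (157 of all genes), 3 of 54 tested with no filter (754) and 9 with DESeq2 (1740, adding ASPH, SRL, ATP2C1 and RCAN1). It was 6 with limma-voom and quality weights per library (1748), 3 with the top-10 share as a covariate (460) and 0 without fibre1 pigs 5 and 6 (28). With single pigs left out it was 0 (without fibre2B pig 14, 0 of all genes, or 16, 300) to 7 (without fibre1 pig 17, 1159). Without fibre1 pig 12 it was 5 (1548) and without fibre2B pig 11 it was 2 (831). Among named genes near 0, S100A4 turned positive with the covariate (0.22), without fibre1 pigs 5 and 6 (0.22) and ran from -0.39 to 0.29 with single pigs left out. With single pigs left out, STIM2 ran from -0.27 to 0.0294, positive without fibre2B pig 11, and SLN from -0.13 to 0.0844, positive without fibre2B pig 14.

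With 7 against 4 pigs whose biological coefficient of variation was 29.8%, a difference under the test's reach cannot be told from none. No paired analysis was possible because the groups share no replicate numbers.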
